A study of Mus musculus with 23 samples.

Results

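The transcription factor p53 is held at a low level by the inhibitors Mdm2 and Mdm4. When DNA is broken, kinases release it from them, and it then activates genes that stop the cell cycle, repair DNA, adjust metabolism or kill the cell. Several of these genes, among them Mdm2 and the phosphatase gene Ppm1d, feed back to switch p53 off again. In developing B cells, which cut their own DNA to assemble antibody genes, this pathway guards against the outgrowth of cells with damaged genomes. The genes described here are p53 and 34 of its regulators and targets, 35 listed symbols in all, looked up in a table of 19938 symbols. For 32 of the 35 a probe set with a single symbol was found, 1 probe set for each gene, and Trp53 itself, Cdkn1a and Fdxr are not analysed here. The level of p53 mRNA and that of the arrest gene Cdkn1a are therefore missing from all that follows, and the genes below are read as single transcripts, not as a measure of p53 activity. After a filter on low signal 30 of the 32 were tested.

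The samples were bone marrow of mice given a single dose of 2 Gy of radiation at 2 months of age, in controls as well as in Pax5+/- animals, each measured on 1 array. In Pax5+/- mice a single copy is left of Pax5, the gene that holds cells to the B cell fate. The groups were leukemic marrow of 10 Pax5+/- mice (titled pro-B cells), pro-B and pre-B cells of 7 Pax5+/- mice without leukemia taken 3 weeks after the dose (preleukemic), leukemic marrow of 3 wild-type (WT) mice, and the same preleukemic cells of 3 WT mice. No unirradiated sample is used here, so no value below is a response to the dose. Leukemia, B cell stage and time after the dose cannot be told apart, and that time is labelled for the preleukemic samples only. Values are log2 signals, and array medians lay between 6.06 and 6.2.

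Markers of B cell precursors differed between the groups. Over 12 markers of B cell precursors the mean log2 level per sample was 9.25 to 10.68 in Pax5+/- leukemic samples, 10.95 to 11.35 in Pax5+/- preleukemic samples, 8.27 to 10.16 in WT leukemic samples and 11.08 to 11.37 in WT preleukemic samples. Markers of other cells moved with leukemia. A fit with these markers as a covariate is given below, but their part in the results cannot be told apart from stage. In Pax5+/- mice 10 of 14 neutrophil, 10 of 12 monocyte and macrophage, 5 of 5 megakaryocyte and 8 of 10 stroma and endothelium markers were higher in leukemia, and in WT mice 0 of 14, 6 of 12, 5 of 5 and 7 of 10. Among all genes tested, 28% were higher in Pax5+/- and 17.9% in WT leukemia. T cell markers (2 of 9 in Pax5+/- and 1 of 9 in WT mice) and NK cell markers (1 of 9 and 0 of 9) were seldom higher. Plasmacytoid dendritic cell markers were higher for 4 of 7 in Pax5+/- leukemia. In WT leukemia 0 of these 7 were higher and 1 was lower. Of 5 erythroid markers 1 was higher and 1 lower in Pax5+/- leukemia, and 3 were higher in WT leukemia. Over the 14 neutrophil markers the mean log2 level ran from 6.25 to 10.98 in Pax5+/- leukemic, 6.31 to 7.09 in Pax5+/- preleukemic and 9.42 to 10.39 in WT leukemic samples. Of 11 proliferation genes 10 were higher in leukemia in each genotype. Of the 12 B cell precursor markers 7 were lower in Pax5+/- and 9 in WT leukemia, against 36.5% and 19.3% of all genes. For the neutrophil markers, WT preleukemic sample 20 stood apart at 10.78, against 6.70 in both other WT preleukemic samples. In bulk samples fewer cells of a type and less RNA per cell cannot be told apart. Sex also coincided with stage in WT mice: Xist exceeded Eif2s3y in 3 of 3 WT leukemic and 0 of 3 WT preleukemic samples, but in 5 of 10 Pax5+/- leukemic and 3 of 7 Pax5+/- preleukemic samples.

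p53 binds DNA as a tetramer over a pair of 10-base half-sites, and the promoters of the genes were searched for the half-site to show which of them carry the letters close to the start of transcription. The window ran from 250 bases before to 50 after each start (RefSeq, GRCm38.p6). The half-site consensus reads the same on both strands, so 1 search covers both. Promoters were found for 26 of the 32 genes, and 10 of the 26 held at least 1 half-site (38.5%), against 9.55% of the 27025 genes in the table. A full site, which is a pair of half-sites at most 13 bases apart, was found in none of the 10. The genes were listed as p53 targets, so this share is a description of the list. Promoters with a half-site belonged to 2 of 4 genes that rose in Pax5+/- leukemia, 3 of 9 that fell and 5 of 11 that were not called. These counts leave out genes for which no promoter was found. They are Ddb2, Xpc and Tnfrsf10b, which rose, Trp53inp1, which fell, and Perp and Zmat3, which were not called. The 6 sequences below show the range: Mdm2 and Gadd45a fell in leukemia, Ei24 and Rps27l rose, Ccng1 was not called, and Gtse1 differed between the genotypes. Capitals mark the half-sites.
Mdm2, chr10:117710709-117711008, minus strand: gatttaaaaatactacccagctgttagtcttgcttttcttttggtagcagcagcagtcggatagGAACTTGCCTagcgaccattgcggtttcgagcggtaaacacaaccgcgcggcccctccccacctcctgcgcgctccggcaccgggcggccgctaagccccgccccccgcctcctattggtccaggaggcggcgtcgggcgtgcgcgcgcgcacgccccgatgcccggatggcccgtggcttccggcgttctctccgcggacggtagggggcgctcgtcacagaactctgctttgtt
Gadd45a, chr6:67037358-67037657, minus strand: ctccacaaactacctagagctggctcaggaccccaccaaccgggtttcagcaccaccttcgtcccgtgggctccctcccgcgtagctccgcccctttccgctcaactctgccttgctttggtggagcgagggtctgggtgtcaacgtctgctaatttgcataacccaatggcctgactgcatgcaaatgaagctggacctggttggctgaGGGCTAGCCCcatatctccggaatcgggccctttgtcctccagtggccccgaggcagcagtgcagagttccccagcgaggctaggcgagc
Ei24, chr9:36797285-36797584, minus strand: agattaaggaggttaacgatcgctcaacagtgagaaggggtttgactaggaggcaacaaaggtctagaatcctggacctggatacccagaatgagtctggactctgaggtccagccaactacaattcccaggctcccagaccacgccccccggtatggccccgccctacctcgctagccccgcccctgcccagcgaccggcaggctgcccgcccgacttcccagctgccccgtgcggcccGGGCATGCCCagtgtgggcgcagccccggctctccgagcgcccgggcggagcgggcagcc
Rps27l, chr9:66946163-66946462, plus strand: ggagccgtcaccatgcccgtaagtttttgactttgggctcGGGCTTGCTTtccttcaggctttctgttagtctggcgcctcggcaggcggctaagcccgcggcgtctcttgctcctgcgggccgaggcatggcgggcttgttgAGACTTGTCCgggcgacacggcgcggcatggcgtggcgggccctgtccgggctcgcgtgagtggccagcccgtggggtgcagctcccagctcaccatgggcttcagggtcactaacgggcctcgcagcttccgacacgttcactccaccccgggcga
Ccng1, chr11:40755237-40755536, minus strand: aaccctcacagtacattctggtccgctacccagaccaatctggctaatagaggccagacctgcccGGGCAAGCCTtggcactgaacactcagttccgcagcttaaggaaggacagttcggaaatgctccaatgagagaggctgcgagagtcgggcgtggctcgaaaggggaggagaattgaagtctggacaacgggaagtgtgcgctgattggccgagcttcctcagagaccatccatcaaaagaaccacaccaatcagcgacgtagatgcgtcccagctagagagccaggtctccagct
Gtse1, chr15:85859696-85859995, plus strand: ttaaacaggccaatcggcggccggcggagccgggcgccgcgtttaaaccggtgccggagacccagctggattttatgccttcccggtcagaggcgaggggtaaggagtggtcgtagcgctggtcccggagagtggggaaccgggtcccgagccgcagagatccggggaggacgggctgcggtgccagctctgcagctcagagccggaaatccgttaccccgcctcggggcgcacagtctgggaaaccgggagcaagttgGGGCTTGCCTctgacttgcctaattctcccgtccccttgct
The half-site began at position -186 relative to the start in Mdm2, at -40 in Gadd45a and at -10 in Ei24. Rps27l, at the downstream of its 2 listed starts, held 2 half-sites, which began at -210 and -107. In Ccng1 the half-site began at -185, and in Gtse1, at the downstream of its 2 listed starts, at position 10.

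The comparison of Pax5+/- leukemias with Pax5+/- preleukemic cells asks which p53 pathway genes separate the leukemia from irradiated precursors. Mdm2, Mdm4 and Ppm1d, grouped here as restraints of p53, and 4 of 7 genes of growth arrest were lower in leukemia. Ddb2 and Xpc, which recognise lesions in nucleotide excision repair, were higher. Of the 30 genes tested, 7 rose, 10 fell and 13 were not called (limma, Benjamini-Hochberg adjusted over 15542 genes, threshold 0.05). That is 56.7% of the list, below the 64.6% called among all 15542 genes (28.0% higher and 36.5% lower), so the number of changed genes does not set the list apart. The median log2 difference was 0.02, against -0.05 over all genes, and the median size of the difference was 0.43, against 0.24. For 9 of the 30 the samples of the groups did not overlap, 2 higher and 7 lower, against 22.4% of all genes (11.7% higher and 10.8% lower). All 17 calls were also made without Pax5+/- leukemic samples 2, 6 and 7, whose neutrophil marker means were 10.57, 10.98 and 6.56. This set had been planned as leukemias with high markers of other cells, which does not hold for sample 7. With the first component of the other-cell markers as a covariate, 7 of the 17 calls remained (Mdm2, Gadd45a, Gadd45g, Plk2, Ei24, Ddb2 and Xpc), and the share of all genes called fell to 27.2%. That covariate moves with stage itself, so what part other cells had in the rest cannot be told apart from stage.

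**Figure D1:**
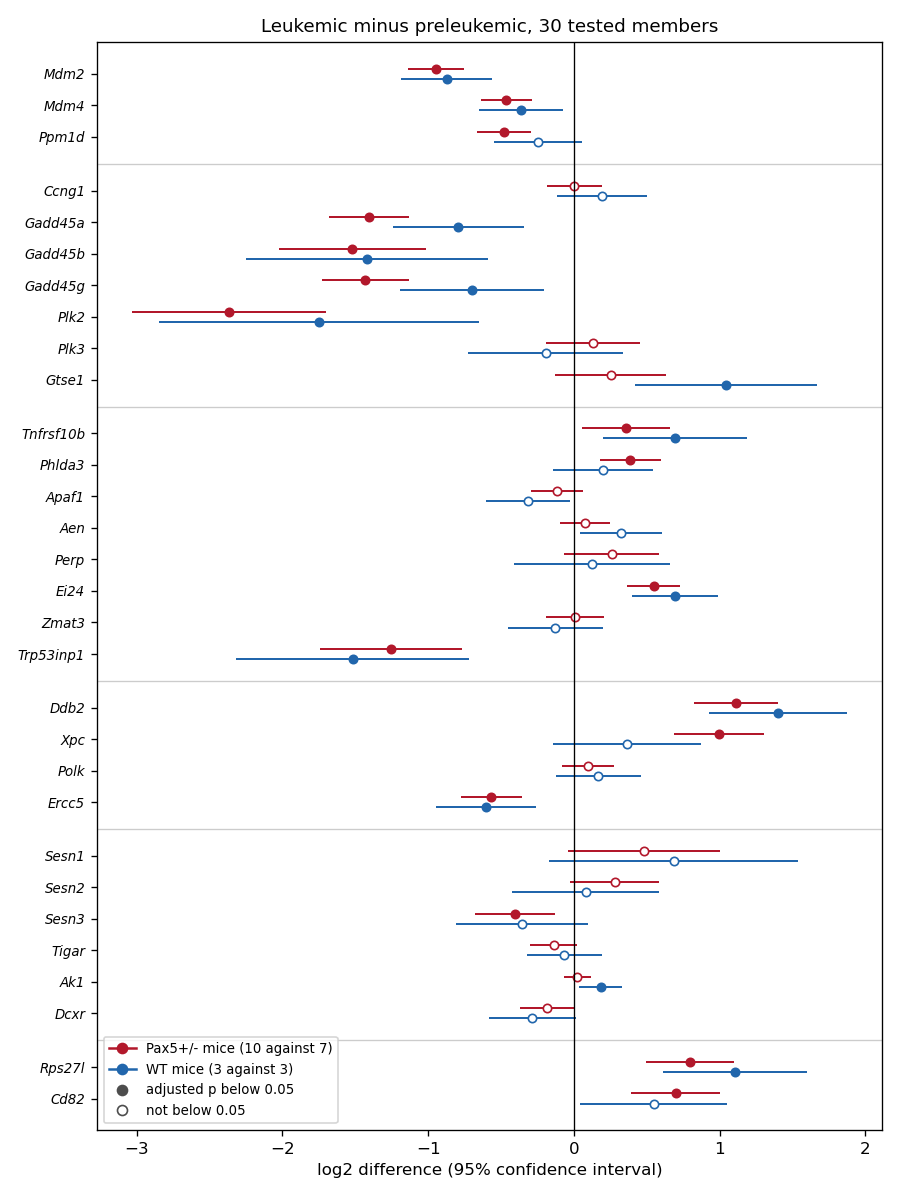
Log2 difference, leukemic minus preleukemic, of the 30 tested genes with 95% confidence intervals, in Pax5+/- mice (red, above, 10 samples against 7) and WT mice (blue, below, 3 against 3), grouped by role. Filled points passed an adjusted p of 0.05: Plk2 lies farthest to the left at -2.37 in Pax5+/- mice, and Ddb2 farthest to the right in WT mice.

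The 3 measured genes grouped here as restraints of p53 all fell in Pax5+/- leukemia, where 36.5% of all genes were lower. With the marker component as a covariate Mdm4 (log2 difference -0.25, limma adjusted p = 0.169) and Ppm1d (-0.19, adjusted p = 0.296) were not called. Mdm2, the ubiquitin ligase that marks p53 for destruction, ran from 8.13 to 8.55 (median 8.44) in leukemic and from 9.03 to 9.62 (median 9.38) in preleukemic samples. The groups were separate, with every leukemia below every preleukemic sample, and Mdm2 was 1.93-fold lower (log2 difference -0.95, SE 0.09, n = 10 and n = 7, limma adjusted p = 1.34e-08). Mdm4, its relative that blocks the activating domain of p53, ran from 9.46 to 9.90 (median 9.68) in leukemic and from 9.99 to 10.46 (median 10.14) in preleukemic samples, again without overlap, and was 1.38-fold lower (SE 0.08 in log2 units, limma adjusted p = 5.31e-05). Ppm1d encodes the phosphatase WIP1, which ends the damage signal. It ran from 9.31 to 10.01 (median 9.60) in leukemic and from 9.93 to 10.36 (median 10.09) in preleukemic samples. Leukemias 3 and 7, at 10.01 and 9.95, reached into the preleukemic range, and Ppm1d was 1.39-fold lower (SE 0.09, limma adjusted p = 7.57e-05).

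The Gadd45 genes, stress sensors that bind cell cycle kinases and PCNA and signal to p38 and JNK kinases, fell together. Gadd45a ran from 6.66 to 7.13 (median 6.94) in Pax5+/- leukemic and from 8.08 to 8.61 (median 8.26) in preleukemic samples, a 2.65-fold lower level in leukemia (SE 0.13 in log2 units, limma adjusted p = 9.76e-09). The 10 leukemias lay closely together, with an SD of 0.13. Gadd45b ran from 7.14 to 8.93 (median 8.17) in leukemic and from 9.06 to 10.05 (median 9.55) in preleukemic samples. It was 2.87-fold lower (SE 0.24, limma adjusted p = 1.49e-05), and its leukemias spread more widely, with an SD of 0.57. Gadd45g ran from 5.62 to 6.14 (median 6.00) in leukemic and from 6.74 to 7.99 (median 7.29) in preleukemic samples and was 2.70-fold lower (SE 0.14, limma adjusted p = 2.71e-08). In 9 of the 10 leukemias Gadd45g lay below the array median, and its fold is limited by that background. None of the 3 genes had overlapping groups.

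Plk2, a polo-like kinase gene of the stress response, had the largest difference of the 30. It ran from 5.22 to 7.55 (median 5.72) in Pax5+/- leukemic and from 7.40 to 8.93 (median 8.54) in preleukemic samples. Leukemia 7, at 7.55, was the one that reached the preleukemic range, and 8 of the 10 leukemias lay below the array median. Plk2 was 5.16-fold lower (SE 0.32 in log2 units, limma adjusted p = 2.08e-06). The other arrest genes were not called. Ccng1, which encodes cyclin G1 and is one of the steadiest p53 targets, ran from 10.46 to 11.07 in leukemic and from 10.56 to 10.87 in preleukemic samples, and its difference was 0.00 (95% confidence interval -0.18 to 0.18). Gtse1, a G2 and S phase protein that binds p53, differed by 0.25 (limma adjusted p = 0.222) and Plk3 by 0.13 (adjusted p = 0.457).

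**Figure D2:**
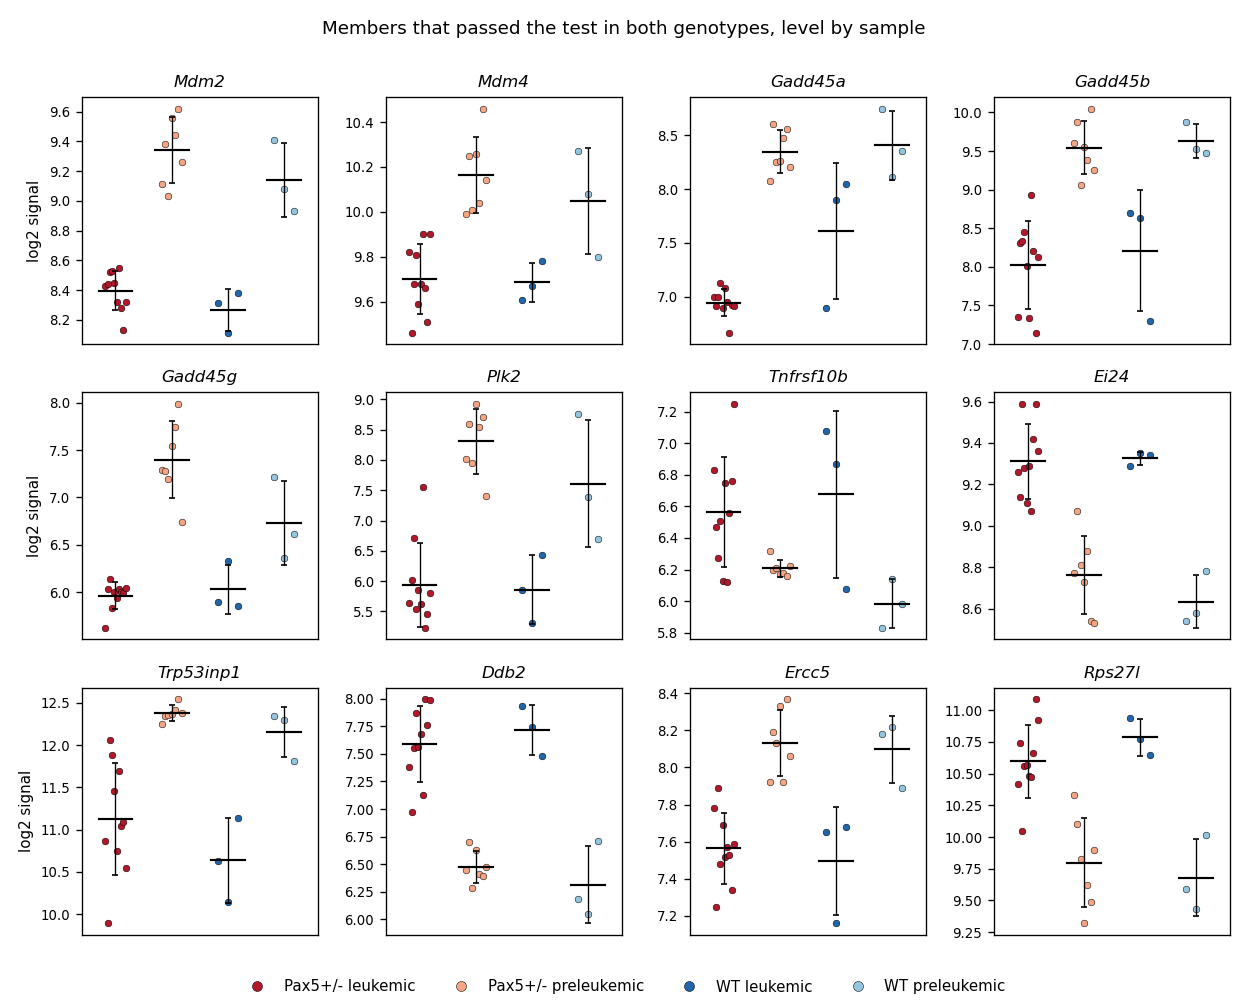
Log2 signal per sample (points) with group mean and SD (bars) for the 12 genes that passed the test in both genotypes. Mdm2, Mdm4, the 3 Gadd45 genes, Plk2, Trp53inp1 and Ercc5 were lower and Tnfrsf10b, Ei24, Ddb2 and Rps27l higher in leukemic samples, and the axes differ between panels.

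Among the 10 death genes 3 rose, 1 fell, 4 were not called and 2 were too dim to test. Of the 8 tested 50% were called, against 64.6% of all genes (28% higher and 36.5% lower). Trp53inp1, which helps p53 to choose death targets and takes part in autophagy, ran from 9.89 to 12.06 (median 11.07) in Pax5+/- leukemic and from 12.25 to 12.55 (median 12.37) in preleukemic samples. All leukemias lay below all preleukemic samples, by amounts that differed widely between leukemias, and the mean was 2.39-fold lower (SE 0.23 in log2 units, limma adjusted p = 8.9e-05). Ei24, an endoplasmic reticulum protein linked to autophagy, ran from 9.07 to 9.59 (median 9.29) in leukemic and from 8.53 to 9.07 (median 8.77) in preleukemic samples. The groups met at a single value, 9.07, held by leukemia 7 and preleukemic sample 12, and Ei24 was 1.46-fold higher (SE 0.08, limma adjusted p = 1.15e-05).

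Phlda3, an inhibitor of AKT signalling, ran from 6.11 to 6.84 (median 6.54) in leukemic and from 5.78 to 6.22 (median 6.15) in preleukemic samples and was 1.31-fold higher (SE 0.10, limma adjusted p = 0.00167). Tnfrsf10b, the mouse TRAIL death receptor, ran from 6.12 to 7.25 (median 6.54) in leukemic and from 6.16 to 6.32 (median 6.20) in preleukemic samples. Leukemias 5, 7 and 3 lay within or below the preleukemic range, and leukemia 10 was the highest. Its 1.28-fold rise had an adjusted p of 0.0323 by limma and was lost when any of samples 1, 6, 9, 10, 21, 22 or 23 was left out (adjusted p up to 0.0549). Apaf1, the core of the apoptosome, Aen, a nuclease of apoptosis, Perp, a membrane protein of apoptosis and cell contacts, and Zmat3, an RNA-binding protein, were not called, with log2 differences of -0.11, 0.08, 0.26 and 0.01. The death receptor genes Fas (4.61 to 5.55 in leukemic and 4.67 to 5.10 in preleukemic samples) and Eda2r (4.62 to 4.82 in leukemic and 4.74 to 4.91 in preleukemic samples) lay near the bottom of every array and were not tested.

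Of the 4 DNA repair genes 2 rose, 1 fell and 1 was not called (75% called, against 64.6% of all genes). Ddb2, which finds ultraviolet lesions in chromatin, ran from 6.97 to 8.00 (median 7.62) in Pax5+/- leukemic and from 6.28 to 6.70 (median 6.45) in preleukemic samples. Every leukemia was above every preleukemic sample, and Ddb2 was 2.16-fold higher (SE 0.14 in log2 units, limma adjusted p = 5.65e-07). Xpc, the sensor that opens repair at distorted DNA, ran from 7.29 to 8.57 (median 8.22) in leukemic and from 6.99 to 7.14 (median 7.05) in preleukemic samples. It too was separate between the groups and 1.99-fold higher (SE 0.15, limma adjusted p = 6.27e-06). Leukemias 2 and 3 were nearest the preleukemic samples. Ercc5, which encodes the nuclease XPG that cuts the damaged strand at a later step, ran from 7.25 to 7.89 (median 7.55) in leukemic and from 7.92 to 8.37 (median 8.13) in preleukemic samples, with no overlap, and was 1.48-fold lower (SE 0.10, limma adjusted p = 4.29e-05). The translesion polymerase gene Polk was not called (log2 difference 0.10, adjusted p = 0.295).

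Of the 6 genes of stress response and metabolism 1 fell and 5 were not called (16.7% called, against 64.6% of all genes). Of the sestrins, which curb mTORC1 signalling, Sesn3 was 1.32-fold lower (8.62 to 9.50, median 8.98, in leukemic and 9.24 to 9.61, median 9.46, in preleukemic samples, SE 0.13 in log2 units, limma adjusted p = 0.00999), with overlapping groups. Sesn1 ran from 9.14 to 11.51 in leukemic and from 9.48 to 10.19 in preleukemic samples and was not called (log2 difference 0.48, adjusted p = 0.0912). Nor was Sesn2 (0.28, adjusted p = 0.0914). The fructose bisphosphatase gene Tigar, the adenylate kinase gene Ak1 and the xylulose reductase gene Dcxr differed by -0.14, 0.02 and -0.18 and were not called. Rps27l, a ribosomal protein paralogue, ran from 10.05 to 11.09 (median 10.57) in leukemic and from 9.32 to 10.33 (median 9.83) in preleukemic samples and was 1.74-fold higher (SE 0.14, limma adjusted p = 5.89e-05). Rps27 is a close paralogue, and cross-hybridisation of its RNA to this probe set was not tested, so the value is uncertain. Cd82, a tetraspanin that restrains cell movement, ran from 10.31 to 11.59 (median 10.84) in leukemic and from 9.98 to 10.47 (median 10.12) in preleukemic samples and was 1.62-fold higher (SE 0.14, limma adjusted p = 3.01e-04).

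WT leukemias and WT preleukemic cells gave the same comparison with 3 samples against 3. Of the 30 genes 6 rose, 8 fell and 16 were not called, which is 46.7% of the list against 37.2% of all genes (17.9% higher and 19.3% lower). For 20 of the 30 the groups did not overlap, 9 higher and 11 lower, against 44.4% of all genes (21.1% higher and 23.3% lower). The comparison shares no sample with that in Pax5+/- mice. Called in both, in the same direction, were 12 genes, 4 higher and 8 lower, which is 70.6% of the 17 called in Pax5+/- and 85.7% of the 14 called in WT mice. Among all genes tested the same shares were 51.8% and 90%, and 0 of the 30 genes were called in opposite directions.

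Mdm2 was at 8.31, 8.11 and 8.38 in WT leukemic samples 14, 15 and 17, against 9.41, 9.08 and 8.93 in WT preleukemic samples 18, 19 and 20. The groups were separate, and Mdm2 was 1.83-fold lower (limma adjusted p = 1.28e-04, SE 0.15 in log2 units, n = 3 each). Ddb2 was at 7.93, 7.74 and 7.48 in WT leukemic samples, against 6.18, 6.05 and 6.71 in WT preleukemic samples, and 2.65-fold higher (SE 0.23, limma adjusted p = 8.12e-05). Trp53inp1 was at 10.63, 10.14 and 11.14 in WT leukemic samples, against 12.35, 12.30 and 11.81 in WT preleukemic samples, and 2.86-fold lower (SE 0.38, limma adjusted p = 0.00416). For these 3 genes the call was made with any 1 sample left out. With the marker component as a covariate the difference of Trp53inp1 was -0.52 (adjusted p = 0.389), and 5 of the 14 WT calls remained (Mdm2, Gadd45a, Ei24, Ddb2 and Rps27l). The share of all genes called fell as well, from 37.2% to 17.7%.

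Ei24 was at 9.29, 9.35 and 9.34 in WT leukemic samples, against 8.54, 8.58 and 8.78 in WT preleukemic samples, and 1.62-fold higher (limma adjusted p = 7.18e-04). Rps27l was at 10.94, 10.77 and 10.65 in WT leukemic samples, against 9.59, 9.43 and 10.02 in WT preleukemic samples, and 2.15-fold higher (limma adjusted p = 0.00107). Both sets of groups were separate, and both calls were made with any 1 sample left out. The other WT calls were each lost when a certain single sample was left out. Gadd45a was at 6.89, 7.90 and 8.05 in WT leukemic samples, against 8.75, 8.11 and 8.36 in WT preleukemic samples, and leukemia 14 lay well below the other WT leukemias. Its 1.73-fold fall (SE 0.21, limma adjusted p = 0.00661) was lost without sample 14 (adjusted p = 0.0594) or 18 (adjusted p = 0.0526). Gadd45b was at 8.70, 8.63 and 7.30 in WT leukemic samples, against 9.88, 9.53 and 9.48 in WT preleukemic samples, and 2.68-fold lower (limma adjusted p = 0.00826, and 0.0642 without sample 17). Plk2 was at 5.85, 5.30 and 6.43 in WT leukemic samples, against 8.76, 7.38 and 6.69 in WT preleukemic samples, and 3.36-fold lower (limma adjusted p = 0.0133, and up to 0.11 without sample 15 or 18).

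Among the remaining WT falls, Gadd45g was at 5.90, 6.33 and 5.86 in WT leukemic samples, against 7.22, 6.36 and 6.61 in WT preleukemic samples (1.63-fold lower, limma adjusted p = 0.0236). Mdm4 was at 9.61, 9.67 and 9.78 in WT leukemic samples, against 10.27, 10.08 and 9.80 in WT preleukemic samples (1.29-fold lower, limma adjusted p = 0.0392). Ercc5 was at 7.65, 7.16 and 7.68 in WT leukemic samples, against 8.18, 8.22 and 7.89 in WT preleukemic samples (1.52-fold lower, limma adjusted p = 0.00663). These 3 genes had separate groups, by the narrowest margin in Mdm4 and Gadd45g. Among the rises, Tnfrsf10b was at 7.08, 6.87 and 6.08 in WT leukemic samples, against 5.83, 6.14 and 5.98 in WT preleukemic samples (1.62-fold higher, limma adjusted p = 0.0252). Gtse1 was at 8.25, 7.55 and 7.63 in WT leukemic samples, against 6.41, 6.29 and 7.60 in WT preleukemic samples (2.06-fold higher, limma adjusted p = 0.00977). In both genes 1 leukemic sample lay within the preleukemic range. Ak1 was at 5.76, 5.56 and 5.67 in WT leukemic samples, against 5.54, 5.47 and 5.43 in WT preleukemic samples (1.14-fold higher, limma adjusted p = 0.0409), below the array median on every array. Each of these 6 genes lost its call on leaving out at least 1 sample: Gadd45g without 14, 17 or 18, Mdm4 without 14, 15, 18 or 19, Ercc5 without 15, Tnfrsf10b without 14, 15 or 18, Gtse1 without 14, 18 or 19, and Ak1 without 14, 17, 19 or 20. With only the WT samples in the fit 6 of the 14 genes were called, and 11 of the 14 with sex as a covariate. The share of all genes called was 22.8% and 30.8% in these fits, against 37.2% in the main fit. Xpc, Ppm1d, Phlda3, Sesn3 and Cd82, called in Pax5+/- mice, were not called in WT mice. The difference between the genotypes in the stage effect was tested for each of the 30 genes and none passed (limma adjusted p from 0.55 upward, 4 genes with an unadjusted p below 0.05, against 0.0965% of all genes passing), so none of these 5 is shown to behave differently. Leaving out WT leukemia 14 made Gadd45a pass that test (log2 difference -0.97, adjusted p = 0.0116, against -0.61 and 0.618 with all samples).

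Before leukemia the Pax5+/- and WT precursors were compared to ask whether the lost Pax5 copy alters the pathway in irradiated B cell precursors. One of the 30 genes differed, 3.33% of the list against 0.624% of all genes (0.232% higher and 0.392% lower), and 3 had an unadjusted p below 0.05. Gtse1 was at 7.89, 7.94, 7.71, 8.21, 8.23, 7.87 and 7.96 in Pax5+/- preleukemic samples 11, 12, 13 and 21 to 24, against 6.41, 6.29 and 7.60 in WT preleukemic samples 18, 19 and 20. Every Pax5+/- sample was above every WT sample, and Gtse1 was 2.31-fold higher (log2 difference 1.21, SE 0.25, n = 7 and n = 3, limma adjusted p = 0.0217). Sample 20 carried the high neutrophil markers described above. Without it the difference was 1.62 (adjusted p = 8.81e-04), and without sample 18 or 19 it was 1.03 or 0.97 and not called (adjusted p = 0.128 and 0.236). Gtse1 is made in dividing cells, and the mean log2 level of 11 proliferation genes was 9.09 to 9.72 in the Pax5+/- samples, against 8.67, 8.81 and 10.47 in WT samples 18, 19 and 20. None of the 11 proliferation genes was called in this comparison (limma, 3 with an unadjusted p below 0.05), and the part of proliferation in the Gtse1 difference was not tested. All 14 neutrophil, 12 monocyte and macrophage, 9 NK cell and 7 plasmacytoid dendritic cell markers had lower means in Pax5+/- samples. No such marker was called, and the part of those cells was not tested.

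**Figure D3:**
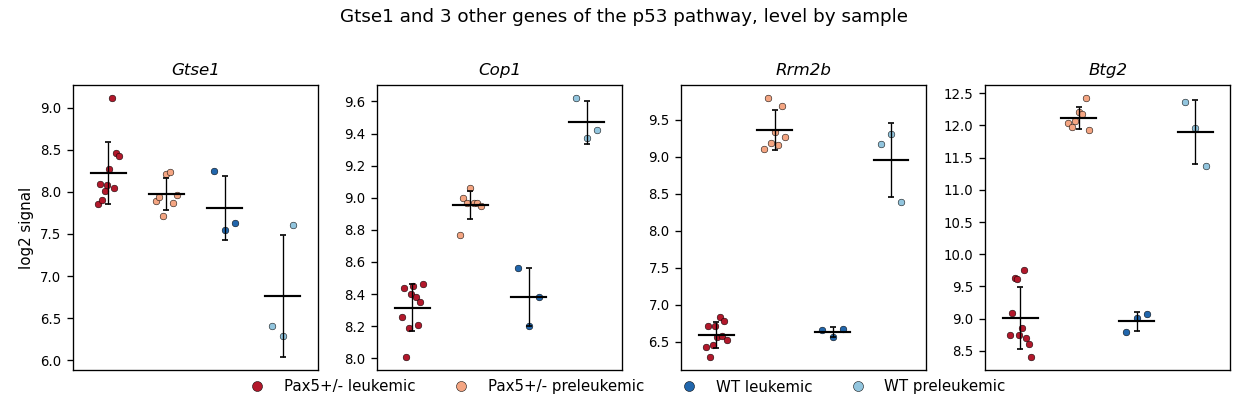
Log2 signal per sample (points) with group mean and SD (bars) for Gtse1 and for Cop1, Rrm2b and Btg2. Gtse1 was higher and Cop1 lower in Pax5+/- than in WT preleukemic samples, and Cop1, Rrm2b and Btg2 were lower in leukemic samples of both genotypes.

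The other 29 genes were not called before leukemia, with log2 differences from -0.23 to 0.70. For Mdm2 the difference was 0.20 (95% confidence interval -0.06 to 0.46), for Ccng1 0.22 (-0.03 to 0.48), for Ddb2 0.16 (-0.23 to 0.56) and for Gadd45a -0.06 (-0.43 to 0.32), and each interval leaves room for a modest change. Gadd45g differed by 0.67 (adjusted p = 0.172) and was called only without Pax5+/- sample 24. Besides Gtse1, groups did not overlap for Xpc, at 6.99 to 7.14 in Pax5+/- samples against 7.20 to 7.33 in WT samples, and Tnfrsf10b, at 6.16 to 6.32 against 5.83 to 6.14. Together with Gtse1 that is 3 of 30 genes, against 5.19% of all genes (2.09% higher and 3.10% lower).

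**Figure D4:**
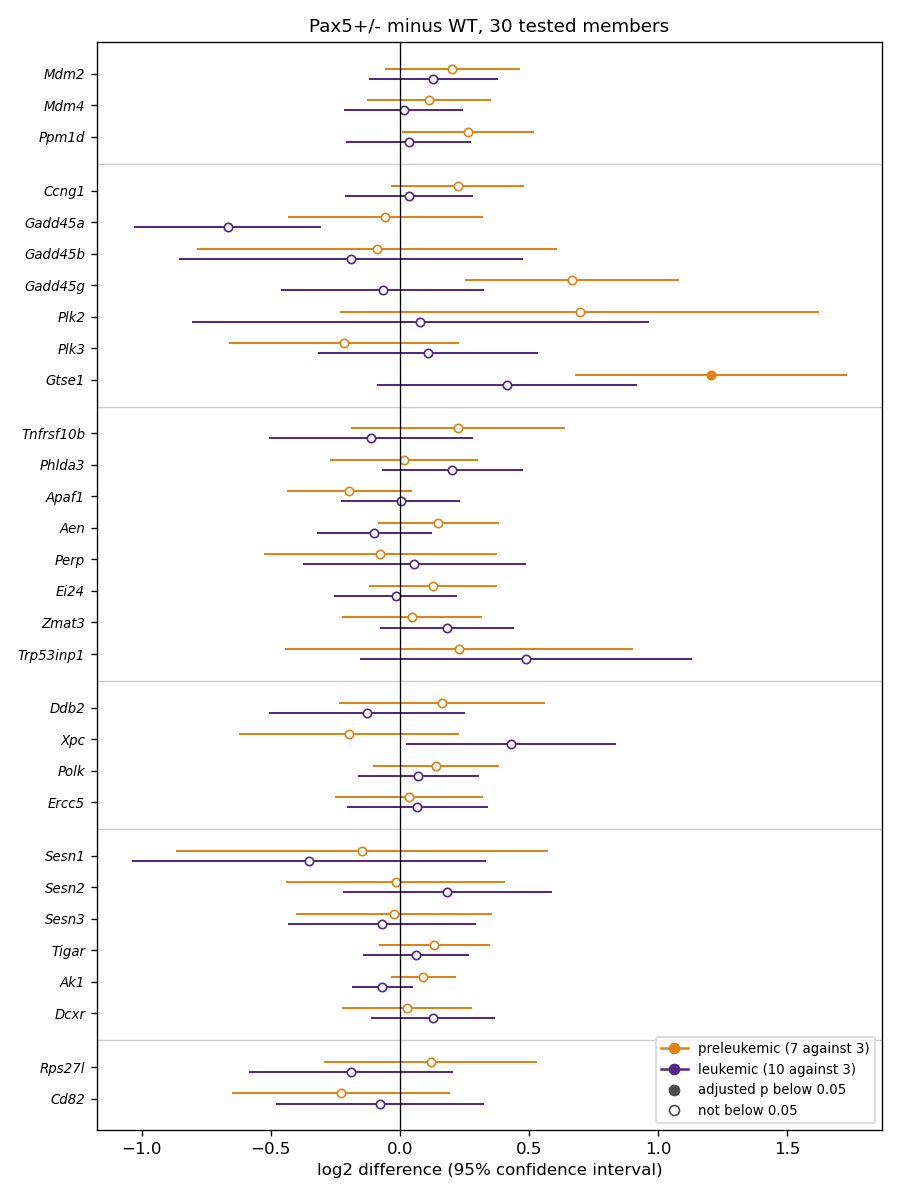
Log2 difference, Pax5+/- minus WT, of the 30 tested genes with 95% confidence intervals, in preleukemic samples (orange, above, 7 against 3) and leukemic samples (purple, below, 10 against 3). The filled point is Gtse1 before leukemia at 1.21, and no other gene passed an adjusted p of 0.05.

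Leukemias of Pax5+/- and WT mice differed in 0 of the 30 genes by limma, against 0.341% of all genes (0.0257% higher and 0.315% lower), and 2 had an unadjusted p below 0.05. The log2 differences ran from -0.67 for Gadd45a to 0.49 for Trp53inp1. Gadd45a was at 6.66 to 7.13 in Pax5+/- leukemias, against 6.89, 7.90 and 8.05 in WT leukemias (SE 0.17, adjusted p = 0.122). Without WT leukemia 14 its difference was -1.03 (adjusted p = 1.05e-04), so the value turns on which of the 3 WT leukemias are counted. The leukemias also differed in erythroid markers, of which 2 of 5 were called lower in Pax5+/- mice. Over these 5 markers the mean log2 level was 5.99 to 6.66 in Pax5+/- leukemias. In WT leukemias the lowest, median and highest were 6.4, 8.76 and 8.93. No marker of another cell type was called. Even so, 14 of 14 neutrophil markers had a lower mean in Pax5+/- leukemias (median log2 difference -1.62), as had 8 of 9 NK cell markers (-0.94). For B cell precursor markers 11 of 12 had a higher mean (0.50). The part of erythroid or other cells in the Gadd45a values was not tested. The groups of leukemias were separate for 0 of the 30 genes, against 0.579% of all genes (0.270% higher and 0.309% lower).

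The spread among the 10 Pax5+/- leukemias was set beside that among the preleukemic samples. For 24 of the 30 genes (80.0%) the SD was higher in leukemic than in preleukemic Pax5+/- samples, against 67.3% of all genes, and the median SD was 0.25 against 0.15. Sesn1 had the widest range, 2.37 log2 units, and Plk2 the highest SD, 0.69. Sesn1 was highest in leukemia 3 (11.51) and lowest in leukemia 2 (9.14). Plk2 spread over 2.33 units with leukemia 7 highest (7.55) and leukemia 8 lowest (5.22), and Trp53inp1 over 2.17 units with leukemia 3 highest (12.06) and leukemia 2 lowest (9.89). Mdm2 spread over 0.42 units and Gadd45a over 0.47.

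Leukemia 2 held the highest level of 7 of the 32 genes, among them Sesn2, Plk3, Cd82, Apaf1, Fas and Tigar, and the lowest of 9, among them Ddb2, Xpc, Sesn1, Sesn3 and Trp53inp1. It also had the lowest mean of the B cell precursor markers (9.25) and the highest of the monocyte and macrophage markers (9.59), and the part of those cells was not tested. Leukemia 3 held the highest level of 7 genes, with Perp at 6.94 and the other leukemias at 5.61 to 6.20. Leukemia 7, which kept the highest B cell precursor mean (10.68), held the highest level of 6 genes, among them Plk2, Gadd45b, Gtse1 and Polk. Leukemia 5 held no extreme.

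**Figure D5:**
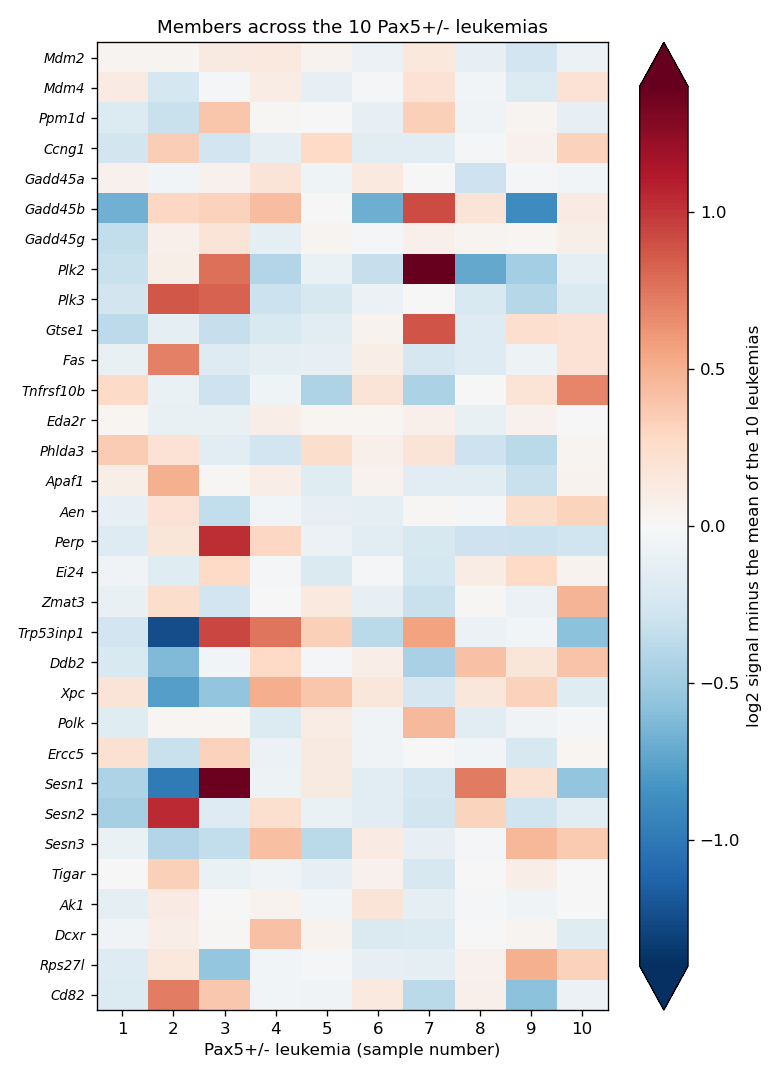
Log2 signal of the 32 genes (rows) in the 10 Pax5+/- leukemias (columns), each minus the mean of the 10. Red is above and blue below that mean; leukemia 2 is low for Sesn1 and Trp53inp1 and high for Sesn2, and leukemia 7 is high for Plk2.

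Across the 10 leukemias the genes did not vary as a single block. Of 435 pairs among the 30 tested genes, 219 had a positive Pearson r, and the median r was 0.01. Reaching 0.8 were 5 pairs, and 2 pairs reached -0.8. These are descriptions over 10 samples that share arrays and differ in other cells. Aen and Rps27l rose and fell together (r = 0.92, Spearman rho 0.81, and r = 0.85 without the 2 samples farthest from the median of Aen), as did Ppm1d and Trp53inp1 (r = 0.86, rho 0.90, and r = 0.87) and Ccng1 and Zmat3 (r = 0.86, rho 0.87, and r = 0.74). Plk3 and Xpc ran opposite (r = -0.90, rho -0.92, and r = -0.68).

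Of 27 further p53 targets tested, 9 rose and 9 fell in Pax5+/- leukemia (66.7%, against 64.6% of all genes), with a median log2 difference of -0.03. In WT leukemia 3 rose and 5 fell (29.6%, against 37.2% of all genes). Rrm2b, the p53-induced subunit of ribonucleotide reductase, ran from 6.30 to 6.84 in Pax5+/- leukemic and from 9.11 to 9.79 in Pax5+/- preleukemic samples (log2 difference -2.77, SE 0.12, limma adjusted p = 1.12e-13). It was at 6.66, 6.56 and 6.68 in WT leukemic samples, against 9.17, 9.31 and 8.39 in WT preleukemic samples (-2.32, adjusted p = 3.54e-08). Btg2, an inhibitor of proliferation, ran from 8.41 to 9.75 in Pax5+/- leukemic and from 11.93 to 12.42 in Pax5+/- preleukemic samples (-3.10, adjusted p = 9.83e-12), and fell by 2.94 in WT leukemia (adjusted p = 3.61e-07). Among the rises was Tap1, a peptide transporter of antigen presentation (1.06 in Pax5+/- and 0.80 in WT leukemia, limma adjusted p = 1.59e-06 and 0.0104).

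Of 22 genes upstream of p53, 7 rose and 9 fell in Pax5+/- leukemia (72.7%, against 64.6% of all genes), and 7 rose and 6 fell in WT leukemia (59.1%, against 37.2% of all genes). Cop1, a ubiquitin ligase that can target p53, ran from 8.01 to 8.46 in Pax5+/- leukemic and from 8.77 to 9.06 in Pax5+/- preleukemic samples (log2 difference -0.64, SE 0.07, limma adjusted p = 9.85e-08). It was at 8.56, 8.20 and 8.38 in WT leukemic samples, against 9.62, 9.37 and 9.42 in WT preleukemic samples (-1.09, adjusted p = 5.82e-07). Cop1 was also the single gene of this list that differed between the genotypes before leukemia, with all 7 Pax5+/- samples below all 3 WT samples (-0.51, SE 0.10, adjusted p = 0.00932, and -0.44 with adjusted p = 0.0785 without WT sample 18). Rchy1, another ubiquitin ligase of p53, fell by 0.80 in Pax5+/- and by 0.74 in WT leukemia (limma adjusted p = 9.71e-07 and 0.00194). Usp10, which removes ubiquitin from p53, rose by 0.87 and 1.15 (adjusted p = 9.89e-08 and 1.22e-05). For Crebbp the mean log2 level was 10.88 in Pax5+/- leukemic and 11.31 in Pax5+/- preleukemic samples, and 10.78 and 11.4 in WT samples. In the same order the means of Trp53bp1 were 8.48 and 7.85, and 8.35 and 7.86. Those of Chek2 were 7.23 and 6.46, and 7.43 and 6.34.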

How the data were processed

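RNA of 23 bone marrow samples was measured, each on 1 single-colour array. The deposited values are log2 signals per probe set, made with Transcriptome Analysis Console per the submitters' processing notes; background correction, summarization and normalization are not given in the sources used here. A compressed scale would change the folds, and a shift between groups could also reverse small differences. Samples were grouped by the genotype and stage in their titles. The design text counts 4 WT leukemias, of which 3 are used here. Nothing in the labels ties samples of different groups together.

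Of 28944 probe sets 21789 had 1 symbol in the platform annotation, and the one of highest mean stood for each of 19938 symbols. The 15542 genes above the 30th percentile of the array on at least 3 arrays were fitted with limma 3.58.1 (R 4.3.3; 4 group means, empirical Bayes with a mean-variance trend), and p-values were adjusted by Benjamini-Hochberg over all of them, with a threshold of 0.05. Intervals are 95%. Precision is limited by how many arrays each group has. All listed genes on the array are described, values are given for those called, per sample in groups of 3 and as lowest, median and highest in larger groups, and a few called genes of smallest p are named from other lists. The genes, lists and tests were chosen with earlier results of these data known. Promoters came from RefSeq (GRCm38.p6). Alternatives covered the filter, the variance model, array weights, scaling, covariates and samples left out.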

Additional observations from a re-analysis of the deposited data

Results flagged for a closer look

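In groups of 4 to 10 samples, 12 of 64 tests of single genes set the highest or lowest sample apart by Dixon's ratio. The ratio is the gap to the nearest sample over the range of the group, so small gaps can pass in narrow groups. For a single test chance gives about 1 in 20. The genes share the same arrays, so the tests are not independent and no excess over chance is read from the count. Fas and Eda2r, which failed the signal filter, are included. Among Pax5+/- leukemias, leukemia 2 was high for Fas (5.55, next 5.05), Apaf1 (9.50, next 9.10) and Sesn2 (7.86, next 7.13), and it also had the lowest B cell precursor marker mean of the 10 (9.25). Leukemia 7 was high for Gtse1 (9.11, next 8.46) and Polk (7.63, next 7.28). Leukemia 3 was high for Perp (6.94, next 6.20) and leukemia 4 for Dcxr (8.09, next 7.77), and leukemia 8 was low for Gadd45a (6.66, next 6.89). Among Pax5+/- preleukemic samples, sample 12 was high for Sesn1 (10.19, next 9.72) and Polk (7.46, next 7.13), and sample 11 was high for Tnfrsf10b (6.32, next 6.22) and low for Perp (5.56, next 5.64).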

How the results depend on the processing

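Of 43 values tested (the called genes in each comparison, with Rrm2b, Btg2, Cop1, Usp10 and Gadd45a), all 43 kept their direction and side of the threshold under robust estimation, quantile normalization and without leukemias 2, 6 and 7, and 42 did so with no filter, without the trend, with array weights or after median centring. With the marker component as covariate 19 lost their call. In Pax5+/- leukemia 3 genes then rose and 4 fell (27.2% of all genes called). In WT leukemia 3 rose and 3 fell (17.7% of all genes called). With only the WT groups in the fit 3 rose and 3 fell as well (22.8% of all genes called), but not all the same genes. The covariate kept 5 of the 14 WT calls and added Apaf1, while the fit of WT groups kept 6. Leaving out samples 15, 17 and 20 keeps 1 WT leukemia, sample 14, which is assumed to vary like the other groups: 5 genes then fell in WT leukemia, and the Gadd45a values, 0.06 between the leukemias and 0.14 for the difference between the stage effects, rest on that sample alone on the WT leukemic side. Leaving out 1 sample gave 6 to 8 higher and 10 to 12 lower genes in Pax5+/- leukemia, 4 to 7 higher and 4 to 9 lower in WT leukemia, 0 to 2 higher and 0 to 0 lower between preleukemic groups, and 0 to 0 higher and 0 to 1 lower both between leukemias and for the stage effects. The cause was not tested. The probe set alternative was not run, since each gene has 1. No paired analysis was possible because the groups share no sample numbers. Signals near the bottom of the array limit Fas, Eda2r, Gadd45g, Plk2, Plk3, Perp, Zmat3 and Ak1. Some further called genes had preleukemic signals near the array median, which may limit their folds. Tnfrsf10b was above it on 0 of 3 WT preleukemic arrays. Phlda3 was above it on 4 of 7 Pax5+/- and 1 of 3 WT preleukemic arrays, and Ddb2 on 7 of 7 and 2 of 3.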
